A study of Homo sapiens with 6 samples.

Results

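The 10 genes described here encode 5 ligands of the tumor necrosis factor (TNF) superfamily (TNF, TNFSF9, TNFSF10, TNFSF12 and CD70) and 5 receptors of the matching receptor superfamily (TNFRSF10A, TNFRSF10B, TNFRSF1A, FAS and TNFRSF12A). They were chosen by gene name from the 50868 genes with values, and all 10 were found. RNA came from UM-UC-3 and 5637, 2 established human bladder cancer cell lines that carried a control hairpin (sh-NC) or 1 of 2 short hairpins against the long noncoding RNA LNMAT1 (sh-LNMAT1#1, below sh#1, and sh-LNMAT1#2, below sh#2), all delivered by lentivirus and kept by puromycin selection. The study asked which genes depend on LNMAT1, and each of the 6 combinations of line and hairpin was sequenced as 1 library, so no group has a replicate. The culture medium differed between UM-UC-3 and 5637, so line and medium cannot be told apart.

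TNF superfamily ligands are made as trimeric membrane proteins that act on a neighbouring cell or, once cleaved by proteases, at a distance. Their receptors fall into those with a cytoplasmic death domain, which can recruit FADD and caspase-8 and trigger apoptosis, and those without one, which recruit TRAF adaptors and turn on NF-kappaB. The split is not strict, since TNFRSF1A, which has a death domain, turns on NF-kappaB as well. In bladder cancer, TNF and its relatives are known both from the inflammatory response of the tumor and from the response to bacillus Calmette-Guérin, and TRAIL receptors have been studied as drug targets.

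Values are FPKM, fragments scaled to the length of the gene and the depth of the library, so levels can be set beside each other only roughly. The scaling does not correct for a different make-up of RNA between libraries. Between genes it depends on the length used, which is not given here for genes with several transcripts. Depth lay between 19380000 and 24711000 fragments a library. LINC01296, the name under which LNMAT1 is listed, stood at 14.2 FPKM in the UM-UC-3 control against 6.20 and 6.70 FPKM with the hairpins, and 11.7 FPKM in the library labelled 5637 sh-NC against 4.70 and 2.14 FPKM. The library labelled 5637 sh-NC did not carry the epithelial profile of the other 5637 libraries. The summed level of 7 epithelial markers (KRT5, KRT7, KRT8, KRT18, KRT19, CDH1 and EPCAM) was 26.7 FPKM there, between 21.3 and 30.9 FPKM in UM-UC-3, and 700 and 945 FPKM in the 5637 sh-LNMAT1 libraries. That of 4 mesenchymal markers (VIM, CDH2, ZEB1 and SPARC) was 162 FPKM there, between 179 and 397 FPKM in UM-UC-3, and 12.1 and 16.1 FPKM in the 5637 sh-LNMAT1 libraries. Every comparison within 5637 rests on that library, and the comparison of the sh-LNMAT1 libraries of the 2 lines does not use it.

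By the mean over the 6 libraries the order was TNFRSF12A (50.6 FPKM), TNFRSF10B (31.7 FPKM), TNFRSF10A (23.0 FPKM), TNFRSF1A (9.09 FPKM), CD70 (5.32 FPKM), TNFSF10 (2.79 FPKM), TNFSF9 (2.74 FPKM), FAS (2.21 FPKM), TNF (1.19 FPKM) and TNFSF12 (0.640 FPKM). The ranges over libraries of any neighbours in this order overlapped, so the order of neighbours is not fixed by these data. TNFRSF1A and FAS kept to a narrow range, with the highest library 1.47 and 1.59 times the lowest. CD70 spanned 39.5-fold, and TNF lay between 0.0532 and 4.63 FPKM.

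**Figure D1:**
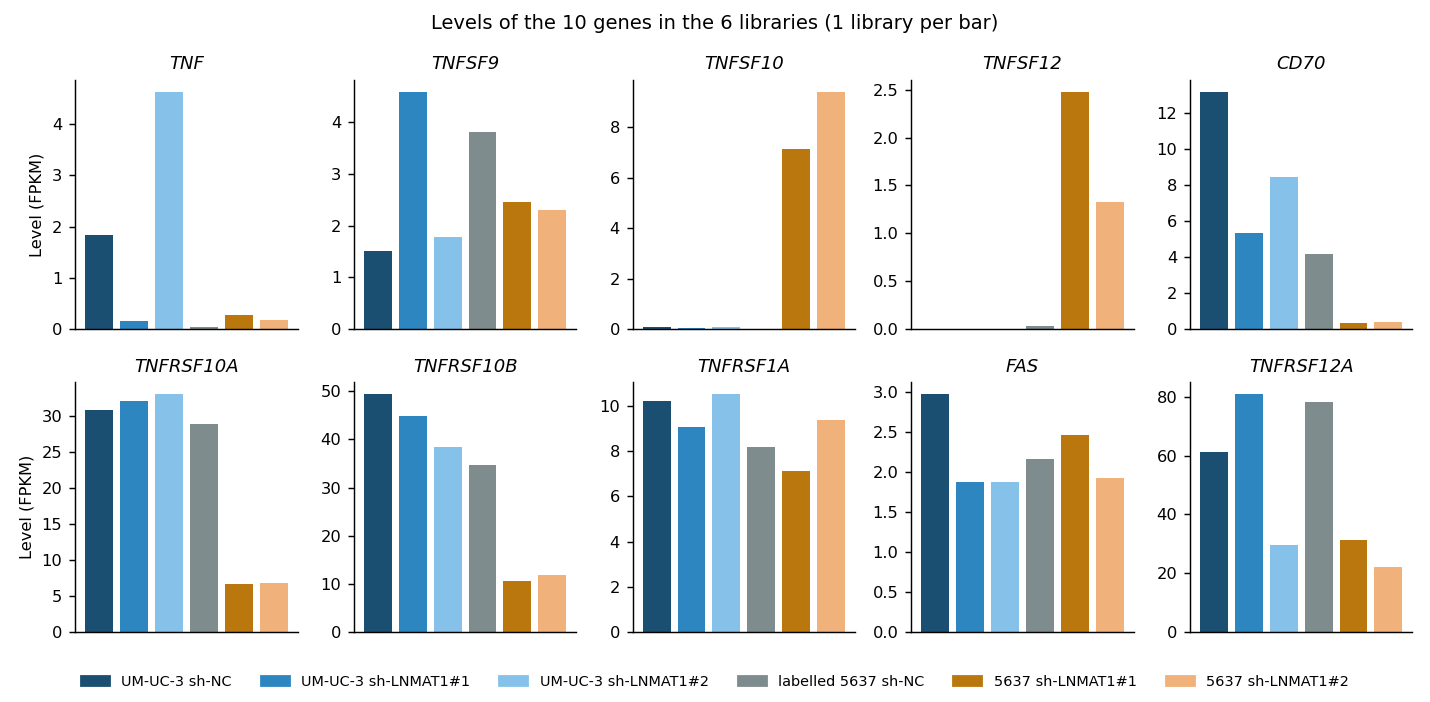
Level in FPKM (vertical axis, from 0, on its own scale for each gene) of the 10 genes in the 6 libraries, 1 bar per library with no error bar because each group is 1 library. TNFSF10 and TNFSF12 stand above 1 FPKM in the 5637 sh-LNMAT1 libraries alone, TNFRSF10A and TNFRSF10B are lowest there, and TNFRSF1A lies between 7.14 and 10.5 FPKM throughout.

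TNF (ENSG00000232810; chromosome 6, 31575567 to 31578336, plus strand, GRCh38), the cytokine that gives the family its name, was 1.84 FPKM in the UM-UC-3 control, 0.161 FPKM under sh#1 and 4.63 FPKM under sh#2. In the library labelled 5637 sh-NC it was 0.0532 FPKM, with 0.287 and 0.185 FPKM in 5637 sh#1 and sh#2. The UM-UC-3 hairpins thus lay on either side of their control, and the 5637 libraries were all low. In bulk RNA, here and below, fewer cells with a transcript and less of it per cell cannot be told apart. TNF has a single annotated transcript, and its values came out as whole fragments: 76, 6 and 178 in UM-UC-3 and 2, 10 and 6 in 5637. The ratio to sh-NC in UM-UC-3 was 0.0876 with sh#1 (exact 95% interval 0.0312 to 0.200) and 2.52 with sh#2 (1.92 to 3.35). These intervals cover counting error only, and since fragments were amplified without molecular identifiers they are the narrowest the error can be. In 5637 the ratios were 5.39 (1.15 to 50.6) and 3.47 (0.621 to 35.2), on a control of 2 fragments.

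The promoter of TNF is shown because its 2 hairpin libraries in UM-UC-3 lay on opposite sides of sh-NC, that of TNFSF10 because it stayed under 0.1 FPKM in 4 libraries and passed 7 FPKM in the other 2, and that of TNFRSF1A because its range was the narrowest. The sequences are RefSeq's, from 250 bases before to 50 bases after the annotated start on GRCh38.p14, given 5′ to 3′ on the strand of the gene, and capitals mark a TATA box (TATAAA) or a GC box (GGGCGG), each searched on both strands. Windows were at hand for 5 of the 10 genes.
TNF, chr6:31575315-31575614, plus strand: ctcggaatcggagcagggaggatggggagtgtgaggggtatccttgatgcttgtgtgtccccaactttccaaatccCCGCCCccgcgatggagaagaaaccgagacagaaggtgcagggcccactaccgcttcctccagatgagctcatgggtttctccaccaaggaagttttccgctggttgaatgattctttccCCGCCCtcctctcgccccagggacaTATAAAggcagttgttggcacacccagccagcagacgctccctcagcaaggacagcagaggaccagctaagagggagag
TNFSF10, chr3:172523381-172523680, minus strand: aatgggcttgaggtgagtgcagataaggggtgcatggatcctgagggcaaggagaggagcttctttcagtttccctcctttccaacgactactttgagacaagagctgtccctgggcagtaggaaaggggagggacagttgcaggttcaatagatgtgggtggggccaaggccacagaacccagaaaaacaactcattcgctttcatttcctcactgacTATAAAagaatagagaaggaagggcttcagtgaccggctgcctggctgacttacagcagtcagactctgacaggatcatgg
TNFRSF1A, chr12:6342027-6342326, minus strand: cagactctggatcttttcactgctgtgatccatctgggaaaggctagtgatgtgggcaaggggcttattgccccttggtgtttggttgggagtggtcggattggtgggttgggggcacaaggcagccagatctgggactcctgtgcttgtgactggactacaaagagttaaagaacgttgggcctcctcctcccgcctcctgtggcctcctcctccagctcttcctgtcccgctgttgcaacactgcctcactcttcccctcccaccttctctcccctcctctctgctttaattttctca
The TNF window holds a TATA box from -29 to -24 relative to the start, and GC boxes from -174 to -169 and from -54 to -49 on the opposite strand. That of TNFSF10 holds a TATA box from -31 to -26, and that of TNFRSF1A holds neither motif. No match to the kappaB consensus or the AP-1 site (TGANTCA) was found in the 3 windows, which says only that no stretch fits every letter, and looser variants of the kappaB site were not searched. The windows of FAS, not shown, held a kappaB match from -157 to -148 and, for another start, an AP-1 match from -242 to -236. That of TNFSF9, also not shown, held neither of these. Of 35116 promoter windows of this length, 11.5% hold the TATA box, 45.0% the GC box, 11.3% the kappaB site and 7.71% the AP-1 site. In the 3 windows shown, no match overlapped another. A match describes letters and was not tested as a site.

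TNFSF9 (ENSG00000125657; chromosome 19, 6530999 to 6535928, plus strand), the ligand of the T cell costimulatory receptor TNFRSF9, was 1.51 FPKM in the UM-UC-3 control, 4.58 FPKM under sh#1 and 1.78 FPKM under sh#2. The library labelled 5637 sh-NC held 3.80 FPKM, 5637 sh#1 2.45 FPKM and 5637 sh#2 2.29 FPKM. Both UM-UC-3 hairpin libraries were above their control and both of 5637 were below theirs. Its single transcript gave 62, 170 and 68 fragments in UM-UC-3 and 142, 85 and 74 in 5637. The ratio to sh-NC was 3.04 (2.26 to 4.14) with sh#1 in UM-UC-3 but 1.18 (0.825 to 1.69) with sh#2, an interval that includes no difference. In 5637 it was 0.646 (0.488 to 0.851) and 0.604 (0.449 to 0.805).

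CD70 (ENSG00000125726; chromosome 19, 6583183 to 6604103, minus strand), the ligand of CD27 and otherwise a mark of activated lymphocytes, was 13.2 FPKM in the UM-UC-3 control, 5.33 FPKM under sh#1 and 8.48 FPKM under sh#2. Among the 5637 libraries, the one labelled sh-NC held 4.21 FPKM, and the 2 with sh-LNMAT1 hairpins 0.335 and 0.382 FPKM. All 4 hairpin libraries were below the control of their line. On the scale of log2(FPKM + 0.5), used for every log2 difference here and one that understates the change of low genes, the differences were -1.23 and -0.61 in UM-UC-3 and -2.50 and -2.42 in 5637.

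TNFSF10 (TRAIL; ENSG00000121858; chromosome 3, 172505508 to 172523507, minus strand), the ligand of TNFRSF10A and TNFRSF10B, was 0.0869, 0.0402 and 0.0780 FPKM for sh-NC, sh#1 and sh#2 of UM-UC-3. The library labelled 5637 sh-NC held 0.0160 FPKM, and 5637 sh#1 and sh#2 held 7.13 and 9.41 FPKM. The 5637 sh-LNMAT1 libraries stood apart from all 4 others. In that library labelled as the control there were between 0.167 and 1.24 fragments, depending on the transcript, which is under the floor of 3 fragments, and since whole fragments were not recovered for this gene, a ratio with a counting interval cannot be given. The log2 differences from it, 3.89 and 4.26, depend on the 0.5 that was added.

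TNFSF12 (TWEAK; ENSG00000239697; chromosome 17, 7548891 to 7557890, plus strand), the ligand of TNFRSF12A, was listed at 0 in the 3 UM-UC-3 libraries, at 0.0319 FPKM for the library labelled 5637 sh-NC, and at 2.48 and 1.33 FPKM in 5637 sh#1 and sh#2. With 3 fragments of the shortest transcript as the floor of a single library (at most 0.258 FPKM in UM-UC-3), it was at least 9.61-fold and at least 5.16-fold higher in these 5637 libraries than in any UM-UC-3 library. The read-through gene TNFSF12-TNFSF13 lies on the same strand and shares its exons, and was 0.470 FPKM in UM-UC-3 sh#1, 0.397 and 0.483 FPKM in the 5637 sh-LNMAT1 libraries and 0 in the other 3. How reads were divided between the 2 genes is not given in the sources used here, so the level of TNFSF12 is uncertain. The 0.470 FPKM in UM-UC-3 sh#1 is above the floor used, so the folds hold only for the reads credited to TNFSF12. Counting error in the 5637 values is not in them.

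TNFRSF10A (DR4; ENSG00000104689; chromosome 8, 23190452 to 23225126, minus strand), a death domain receptor of TRAIL, was 30.8, 32.1 and 33.0 FPKM for sh-NC, sh#1 and sh#2 of UM-UC-3. Among the 5637 libraries, the one labelled sh-NC held 28.9 FPKM, and the 2 with sh-LNMAT1 hairpins 6.66 and 6.72 FPKM. The 4 higher values lay close together and far from the 2 lower ones. The log2 differences were 0.06 and 0.10 in UM-UC-3 and -2.04 and -2.02 in 5637. The antisense gene TNFRSF10A-AS1, listed by its clone name and lying over the same stretch, was 11.4, 9.72 and 9.17 FPKM in UM-UC-3, 12.1 FPKM for the library labelled 5637 sh-NC, and 2.94 and 2.43 FPKM in the other 5637 libraries. The library kit keeps strand, but whether strand was used in counting is not given in the sources used here.

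TNFRSF10B (DR5; ENSG00000120889; chromosome 8, 23020133 to 23069179, minus strand), the other death domain receptor of TRAIL and a known target gene of p53, was also lowest in the 5637 sh-LNMAT1 libraries. It was 49.4, 44.8 and 38.5 FPKM for sh-NC, sh#1 and sh#2 of UM-UC-3, 34.6 FPKM for the library labelled 5637 sh-NC, and 10.6 and 11.9 FPKM in the 5637 sh-LNMAT1 libraries. The log2 differences were -0.14 and -0.35 in UM-UC-3 and -1.66 and -1.50 in 5637. RHOBTB2, which overlaps it on the opposite strand, was between 0.925 and 2.53 FPKM. In the 2 5637 sh-LNMAT1 libraries, where TNFRSF10A and TNFRSF10B were lowest, TRAIL was at its highest, and at 7.13 and 9.41 FPKM its level was above the 6.66 and 6.72 FPKM of TNFRSF10A.

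TNFRSF1A (ENSG00000067182; chromosome 12, 6328757 to 6342114, minus strand), the death domain receptor of TNF present on most cells, was 10.2, 9.06 and 10.5 FPKM for sh-NC, sh#1 and sh#2 of UM-UC-3. The library labelled 5637 sh-NC held 8.18 FPKM, and the 2 with sh-LNMAT1 hairpins 7.14 and 9.39 FPKM. The lines overlapped, and the log2 differences from sh-NC lay between -0.18 and 0.19. In UM-UC-3 the level of TNFRSF10A was above that of TNFRSF1A in every library, and in the 5637 sh-LNMAT1 libraries it was below.

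FAS (ENSG00000026103; chromosome 10, 88990531 to 89015785, plus strand), the receptor of Fas ligand, was 2.97, 1.88 and 1.87 FPKM for sh-NC, sh#1 and sh#2 of UM-UC-3. Among the 5637 libraries, the one labelled sh-NC held 2.16 FPKM, and the 2 with sh-LNMAT1 hairpins 2.46 and 1.92 FPKM. Both UM-UC-3 hairpin libraries were lower than their control by the same log2 difference of -0.55, short of 2-fold, and the 5637 hairpins lay on either side of the control (0.15 and -0.13). ACTA2, which overlaps FAS on the opposite strand, was between 0.828 and 3.01 FPKM. Fas ligand itself (FASLG) was listed at 0 in 5 libraries and at 0.0175 FPKM in 5637 sh#1.

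TNFRSF12A (Fn14; ENSG00000006327; chromosome 16, 3018445 to 3022383, plus strand), the receptor of TWEAK, which has no death domain, was 61.3, 80.9 and 29.7 FPKM for sh-NC, sh#1 and sh#2 of UM-UC-3. Among the 5637 libraries, the one labelled sh-NC held 78.4 FPKM, and the 2 with sh-LNMAT1 hairpins 31.4 and 21.9 FPKM. The 2 lines overlapped, with UM-UC-3 sh#2 among the low values. The log2 differences were 0.40 and -1.03 in UM-UC-3 and -1.30 and -1.81 in 5637.

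Within UM-UC-3, 8 of the 10 genes had a mean of at least 1 FPKM, and with both hairpins none of them was 2-fold or more to the same side of sh-NC. The same was true of all but 1.44% of the 12025 genes kept. With single hairpins, 3 of the 8 passed 2-fold with sh#1 (10.9% of all genes), TNF and CD70 lower (5.31%) and TNFSF9 higher (5.55%). With sh#2, 2 of the 8 did (3.51% of all genes), TNF higher (2.1%) and TNFRSF12A lower (1.41%). TNF was the member on which the hairpins differed most, by 2.96 on the log2 scale. With 1 library per hairpin, a difference between hairpins has no replicate check.

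**Figure D2:**
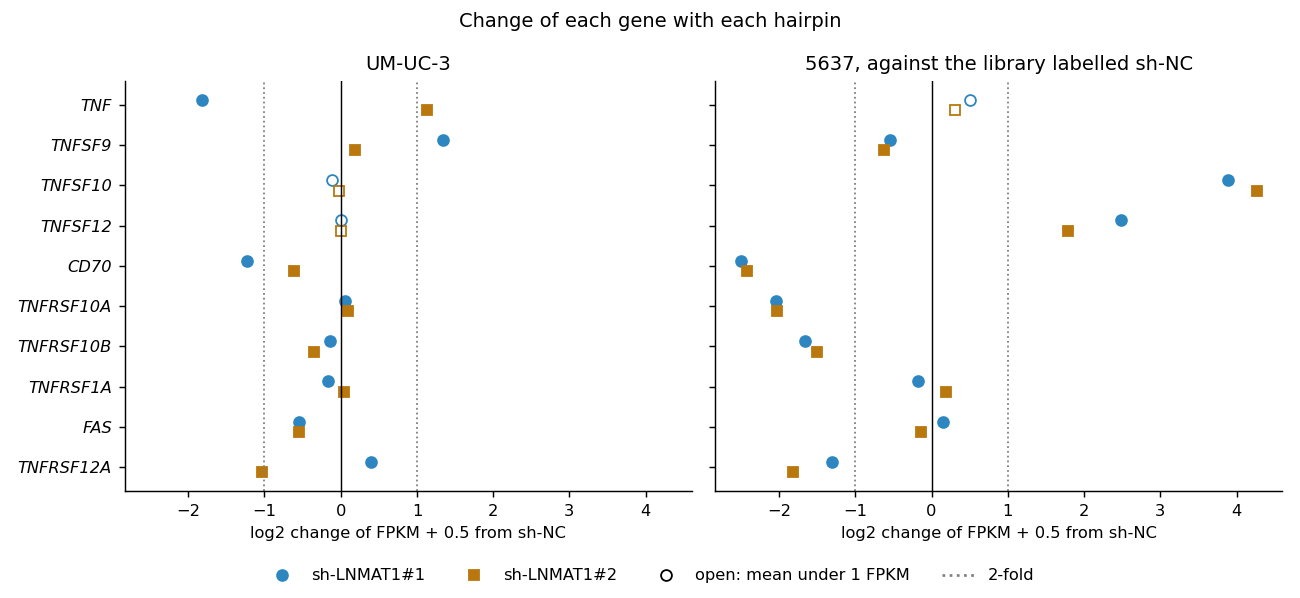
Difference of log2(FPKM + 0.5) from sh-NC (horizontal axis) for each gene, with UM-UC-3 at left and 5637, against the library labelled sh-NC, at right. Circles are sh-LNMAT1#1, squares are sh-LNMAT1#2, open symbols are genes with a mean under 1 FPKM in that line, and dotted lines mark 2-fold. In UM-UC-3 the TNF symbols lie at -1.82 and 1.13, while in 5637 the 2 hairpins lie within 0.51 of each other for every gene but TNFSF12 (0.70).

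The feedback genes of TNF differed in number past 2-fold between the hairpins of UM-UC-3. Of 17 feedback genes that TNF is known to induce through NF-kappaB, 14 were kept in UM-UC-3, and with sh#1 9 of them lay below sh-NC by 2-fold or more (5.31% of all genes did) against 0 with sh#2, where 2 were higher (2.1% of all genes). None passed with both hairpins, and the medians were -1.19 and 0.37 against -0.00 and 0.02 over all genes. BIRC3, an inhibitor of apoptosis that binds TRAF proteins, was 149 FPKM in sh-NC, 9.72 FPKM with sh#1 and 113 FPKM with sh#2. CXCL8, a neutrophil chemokine, was 180, 40.7 and 158 FPKM in that order. NFKB2, a subunit of NF-kappaB, was 55.0, 19.6 and 27.3 FPKM, and NFKBIE, an inhibitor of it, was 10.4, 2.68 and 6.86 FPKM. All 4 of these were lower with either hairpin, and on the scale of log2(FPKM + 0.5) only sh#1 took them past 2-fold, NFKB2 with sh#2 falling just short of it. They were named for the largest mean change over both hairpins, which favours genes that move the same way with both. The 2 that were higher with sh#2 were CCL20 (-2.13 with sh#1 and 1.43 with sh#2) and CXCL2 (-0.58 and 1.29).

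The 20 TRAF and ubiquitin adaptors were all kept in UM-UC-3. None passed with both hairpins, 4 were at least 2-fold lower with sh#1 (5.31% of all genes) and none with sh#2 (1.41%). TRAF1, an adaptor that NF-kappaB induces, was 75.6 FPKM in sh-NC, 2.49 FPKM with sh#1 and 39.8 FPKM with sh#2, log2 differences of -4.67 and -0.92. The kinase MAP3K14 was 6.0, 2.39 and 5.59 FPKM, and the deubiquitinase OTULIN 6.05, 4.06 and 2.83 FPKM. Of 21 genes of death receptor signaling, 18 were kept. FADD, the adaptor of the death domain receptors, was 13.9, 27.5 and 22.1 FPKM, and the deubiquitinase CYLD was 5.24, 2.33 and 4.42 FPKM.

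**Figure D3:**
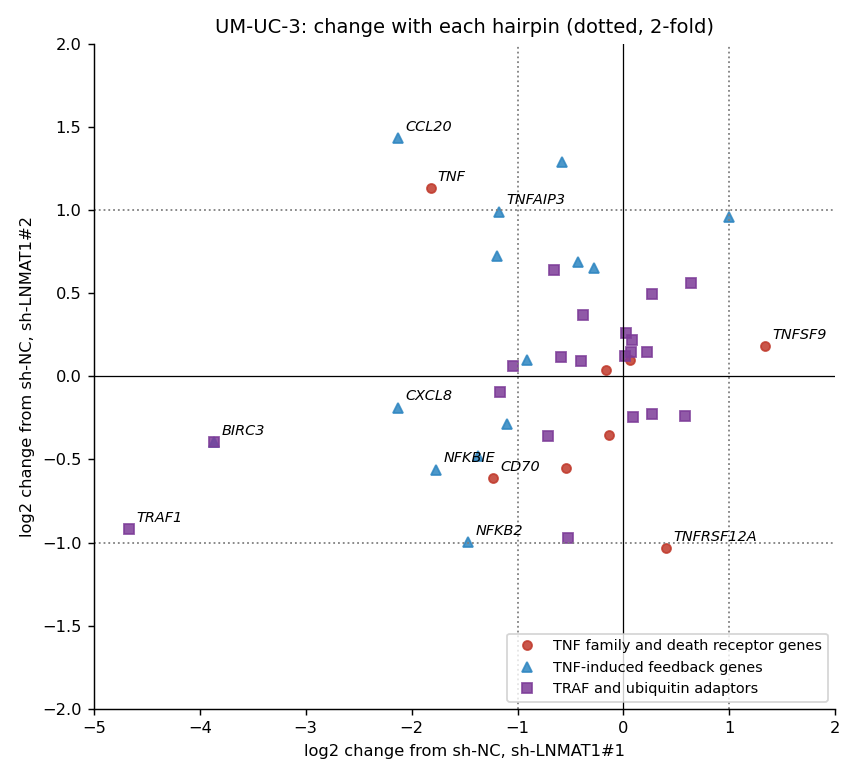
Difference of log2(FPKM + 0.5) from sh-NC in UM-UC-3 with sh-LNMAT1#1 (horizontal axis) and with sh-LNMAT1#2 (vertical axis) for the members (circles), the TNF-induced feedback genes (triangles) and the TRAF and ubiquitin adaptors (squares), 1 library per hairpin, with dotted lines at 2-fold. TRAF1 (-4.67) and BIRC3 (-3.87), which is on both lists, lie far left with vertical values of -0.92 and -0.39, and TNF lies at upper left.

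In 5637, 9 of the 10 genes were kept, and 6 of them differed at least 2-fold with both hairpins from the library labelled sh-NC, where 30.7% of all 12791 genes did. TNFSF10 and TNFSF12 were higher, 2 of 9 against 18.5% of all genes, and CD70, TNFRSF10A, TNFRSF10B and TNFRSF12A were lower, 4 of 9 against 12.3%. TNFSF10 and TNFSF12 were kept only through the 2 hairpin libraries, where they were high, so the filter all but fixed their direction. TNFSF9, TNFRSF1A and FAS stayed within 2-fold. The 2 hairpins differed by at most 0.51 on the log2 scale for any gene kept other than TNFSF12, where they differed by 0.70. The epithelial and mesenchymal markers given above moved with the same contrast, all 7 epithelial markers being at least 2-fold higher and 3 of the 4 mesenchymal ones at least 2-fold lower with both hairpins. Knockdown and the identity of the library labelled 5637 sh-NC cannot be told apart in these values.

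Over both lines, limma adjusted for the cell line, setting the 4 hairpin libraries against both controls, called 0 of the 9 members whose mean over the 6 libraries reached 1 FPKM and 0.0% of all 12717 genes at a Benjamini-Hochberg adjusted p under 0.05. At an unadjusted p under 0.05 there were 811 genes (6.38%), CD70 and TNFRSF10B among them. CD70 had a log2 difference of -1.69 (SE 0.41, unadjusted p = 0.00642, adjusted p = 0.569) and was lower in 4 of 4 hairpin libraries than in the control of its line. Without the library labelled 5637 sh-NC its difference was -0.92 (SE 0.33, adjusted p = 0.807). TNFRSF10B had a difference of -0.91 (SE 0.35, unadjusted p = 0.0413, adjusted p = 0.569), also lower in 4 of 4, and -0.25 without that library. For TNF the difference was 0.03 (SE 0.87, adjusted p = 0.990). Leaving out UM-UC-3 sh-NC instead, so that the library labelled 5637 sh-NC was the single control, called 4 members, namely CD70, TNFRSF10A, TNFRSF10B and TNFSF10, in a fit that called 31.0% of all genes.

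Whether the knockdown difference itself differed between the lines was tested as the interaction of line and knockdown, with 2 residual degrees of freedom. It was called for 2 of the 9 members, TNFSF10 and TNFRSF10A, and for 18.8% of all genes, so the members' share was near that of all genes. For TNFSF10 the difference in 5637 exceeded that in UM-UC-3 by 4.15 on the log2 scale (SE 0.39, limma adjusted p = 0.00377), and for TNFRSF10A it was -2.11 (SE 0.31, adjusted p = 0.0121). TNFSF10 entered the test only through the 2 5637 sh-LNMAT1 libraries, and its value depends on the 0.5 added, being 6.40 with 0.1 and 3.22 with 1. The TNFRSF10A call was lost without 5637 sh#1 (adjusted p = 0.0931) or without 5637 sh#2 (adjusted p = 0.0895). TNFRSF10B (-1.33, SE 0.34, adjusted p = 0.0509) and CD70 (-1.53, SE 0.48, adjusted p = 0.0798) missed the threshold. The interaction cannot be had without the library labelled 5637 sh-NC, the single control of its line.

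The 2 lines were then compared through their sh-LNMAT1 libraries alone, 2 of each, which carry the same constructs and leave out both controls. TRAIL was higher in 5637, and its receptors TNFRSF10A and TNFRSF10B and the ligand CD70 were lower, while TNFRSF10D, another TRAIL receptor, was not called (log2 difference -0.13, SE 0.87, adjusted p = 0.915). Of the 9 members, 4 were called, a share near the 37.6% of all genes, 1 of them higher (18.5%) and 3 lower (19.1%). The log2 difference of TNFSF10 was 3.96 (SE 0.23, limma adjusted p = 3.10e-04), that of CD70 -3.08 (SE 0.27, adjusted p = 0.00104), that of TNFRSF10A -2.20 (SE 0.18, adjusted p = 8.47e-04) and that of TNFRSF10B -1.84 (SE 0.20, adjusted p = 0.00208). For TNFSF10 the difference was 5.71 with 0.1 added in place of 0.5 and 3.12 with 1. TNFSF10 passed the filter only through the 2 5637 sh-LNMAT1 libraries, the higher group here, so its call was not independent of the filter. For each of these 4, both 5637 libraries lay on the same side of both UM-UC-3 libraries. The call for TNFRSF10B was lost without 5637 sh#1 (-1.76, adjusted p = 0.0537).

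The other 5 were not called between the lines. The difference was -1.33 for TNF (SE 0.93, adjusted p = 0.306), where the UM-UC-3 hairpin libraries lay far apart. It was -2.80 (adjusted p = 0.00421) without UM-UC-3 sh#1 and 0.15 (adjusted p = 0.332) without UM-UC-3 sh#2, so its direction rests on the latter. TNFSF9 differed by -0.24 (SE 0.40, adjusted p = 0.660), and by -0.82 (adjusted p = 0.0470) without UM-UC-3 sh#2. TNFRSF12A differed by -0.89 (SE 0.50, adjusted p = 0.212), and by -1.60 (adjusted p = 0.0291) without that same library. With the hairpin number as a block, in a fit with 1 residual degree of freedom, TNFRSF12A was called as well (adjusted p = 0.0378). TNFRSF1A (-0.24, SE 0.23, adjusted p = 0.444) and FAS (0.17, SE 0.22, adjusted p = 0.554) had the smallest standard errors of the 5. TNFSF12, with a mean under 1 FPKM, entered only when no filter was set, with a difference of 2.22 (adjusted p = 0.0489).

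**Figure D4:**
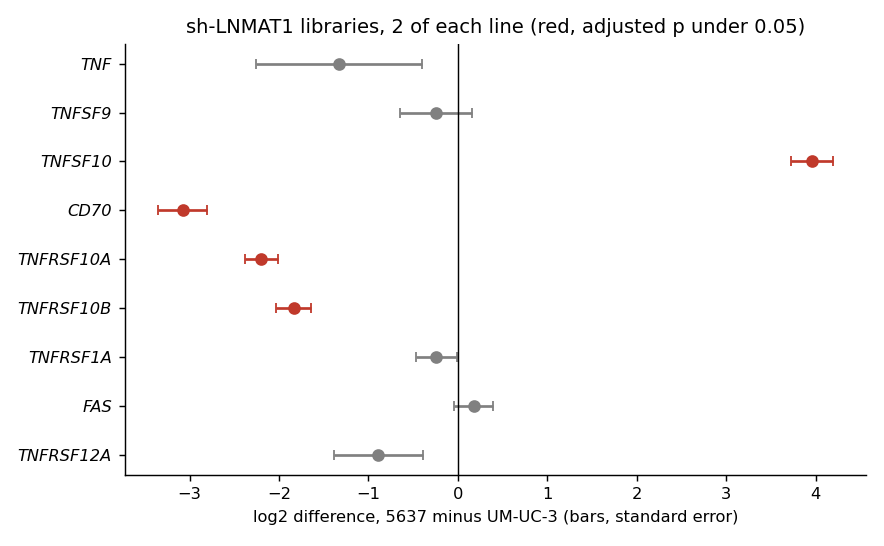
Difference of log2(FPKM + 0.5) between the 2 5637 and the 2 UM-UC-3 sh-LNMAT1 libraries (horizontal axis, 5637 minus UM-UC-3) for the 9 genes tested, with limma's standard error as bars and red for an adjusted p under 0.05. TNFSF10 lies at 3.96, CD70, TNFRSF10A and TNFRSF10B lie between -3.08 and -1.84, and the bars of TNF and TNFRSF12A are wide.

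Most markers of other cell types were near 0. Of 9 leukocyte markers, CD68 alone reached 1 FPKM in any library, and CD3E and LYZ were listed at 0 in all 6. CD68, a lysosomal protein that macrophages hold in quantity, was 15.4, 29.2 and 13 FPKM in UM-UC-3, 31.0 FPKM for the library labelled 5637 sh-NC, and 0.749 and 0.826 FPKM in the 5637 sh-LNMAT1 libraries. All 9 summed to between 13.8 and 29.6 FPKM in UM-UC-3, to 31.3 FPKM for the library labelled 5637 sh-NC, and to 1.71 and 1.45 FPKM in the others, where CD14 added 0.661 and 0.388 FPKM. PTPRC, which marks all leukocytes, was at 0 in 5 libraries and at 0.0108 FPKM in 5637 sh#2. The 3 endothelial markers summed to at most 0.284 FPKM. The 5 fibroblast markers summed to between 0.125 and 0.460 FPKM in UM-UC-3 and the library labelled 5637 sh-NC and to 8.33 and 6.59 FPKM in the 5637 sh-LNMAT1 libraries, nearly all of it COL1A1. The part of these genes in the differences between the lines was not tested.

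The members themselves show where the library labelled 5637 sh-NC stood. For 5 of the 9, namely TNFSF10, CD70, TNFRSF10A, TNFRSF10B and TNFRSF12A, it was nearer to the mean of the 3 UM-UC-3 libraries than to that of the 5637 sh-LNMAT1 libraries, as it was for 79.6% of all genes. For TNFSF10 it was 0.14 below the UM-UC-3 mean and 4.08 below the 5637 sh-LNMAT1 mean on the log2 scale. For TNFRSF10A it was 0.14 below the former and 2.03 above the latter. For TNFRSF1A, FAS, TNFSF9 and TNF the other 5637 libraries were nearer, though for TNFSF9 (0.58 against 0.59) and FAS (0.01 against 0.02) the distances were all but equal.

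Among the UM-UC-3 libraries, the one nearest to it was sh#1 for 7 of the 9 members (61.8% of all genes), sh-NC for TNFRSF10A (18.1%) and sh#2 for TNFRSF10B (20.1%). This count was added after the values were seen. For TNFRSF12A it was 0.05 from sh#1 and 1.39 from sh#2, and for TNF it was 0.26 and 3.21 below them. TRAF1, an adaptor described above and named here after its values were seen, was 2.23 FPKM for the library labelled 5637 sh-NC, 2.49 FPKM in UM-UC-3 sh#1 and 75.6 FPKM in the control of UM-UC-3. It was also low in the 5637 sh-LNMAT1 libraries (1.90 and 1.85 FPKM), so it does not tell UM-UC-3 sh#1 from those. LINC01296, at 11.7 FPKM in the library labelled 5637 sh-NC, was nearer to the UM-UC-3 control (14.2 FPKM) than to UM-UC-3 sh#1 (6.20 FPKM).

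**Figure D5:**
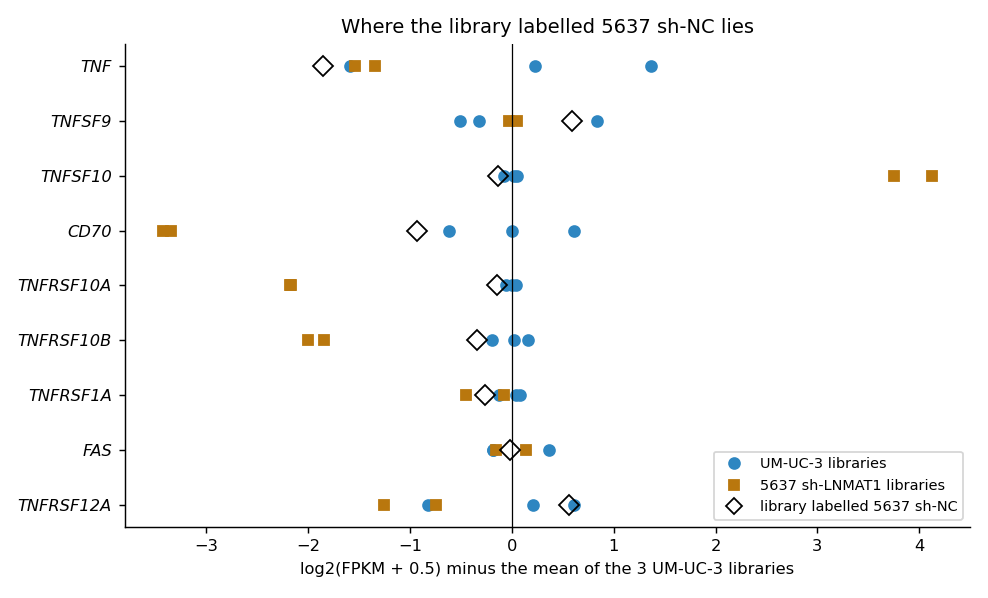
Position of each library on log2(FPKM + 0.5) relative to the mean of the 3 UM-UC-3 libraries (horizontal axis, 0 at that mean) for the 9 genes kept, with circles for UM-UC-3, squares for 5637 sh-LNMAT1 and an open diamond for the library labelled 5637 sh-NC. For TNFSF10, CD70, TNFRSF10A and TNFRSF10B the diamond lies by the circles and the squares stand apart.

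The rest of the superfamily was largely silent on the ligand side. None of 13 other ligands reached a mean of 1 FPKM over any set of libraries compared, and the one that passed 1 FPKM in a library was TNFSF15, at 1.03 FPKM in 5637 sh#2 and 0.487 FPKM in 5637 sh#1. Of 24 other receptors, 9 were kept in UM-UC-3 and none changed with both hairpins (1.44% of all genes did). TNFRSF9, the receptor of TNFSF9, was 2.79, 0.310 and 2.54 FPKM there and at most 0.239 FPKM in 5637. TNFRSF10D, a TRAIL receptor with a truncated death domain, was 7.32, 37.6 and 5.15 FPKM in UM-UC-3, so it too was split by hairpin, and 34.7, 10.7 and 15.4 FPKM in 5637. LTBR, the lymphotoxin receptor, was 4.64, 7.72 and 9.60 FPKM in UM-UC-3, and RELT 3.12, 5.72 and 4.35 FPKM.

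In 5637, 7 of these receptors were kept. TNFRSF21, a death domain receptor, was at least 2-fold higher with both hairpins than in the library labelled sh-NC (18.5% of all genes). CD40, NGFR and TNFRSF10D were lower (12.3% of all genes). Between the lines, 3 of 9 were called, near the 37.6% of all genes. CD40, a receptor of activated antigen-presenting cells also found on epithelial tumors, was 8.99 and 8.73 FPKM in the UM-UC-3 hairpin libraries and 0 and 0.0121 FPKM in those of 5637 (log2 difference -4.21, SE 0.20, limma adjusted p = 2.03e-04). TNFRSF21 was 10.7 and 14.3 FPKM against 74.8 and 111 FPKM (2.83, SE 0.28, adjusted p = 0.00148), and TNFRSF11A, the receptor of RANK ligand, was 2.55 and 1.21 FPKM against 0.290 and 0.156 FPKM (-1.67, SE 0.34, adjusted p = 0.0157). CD40 and TNFRSF11A passed the filter only through libraries other than these 5637 ones, so their calls were not independent of it.

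Downstream genes were called in both directions between the lines, where 18.5% of all genes were higher in 5637 and 19.1% lower, and nothing particular to the lists is read from their counts. In death receptor signaling 3 of 18 were higher in 5637 and 4 lower. The effector caspase CASP6 differed by 1.40 (SE 0.20, adjusted p = 0.00483), while CASP8, the caspase that death receptors activate, differed by -1.17 (SE 0.20, adjusted p = 0.00951), RIPK1, the kinase of the TNF receptor complex, by -1.32 (SE 0.33, adjusted p = 0.0296) and the Fas-binding protein FAF1 by -1.38 (SE 0.20, adjusted p = 0.00551). Of the 20 TRAF and ubiquitin adaptors 3 were higher and 3 lower. BIRC3 (-3.19, SE 1.09, adjusted p = 0.0708) and TRAF1 (-2.21, SE 1.16, adjusted p = 0.189) missed the threshold, the UM-UC-3 hairpins being far apart on both, whereas TRAF5 differed by 1.19 (SE 0.28, adjusted p = 0.0236) and RBCK1, a part of the linear ubiquitin ligase, by -1.21 (SE 0.21, adjusted p = 0.00927).

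Of 16 feedback genes kept, 4 were higher in 5637 and 2 lower. TNFAIP2 differed by 6.16 (SE 0.19, limma adjusted p = 1.41e-04), the adhesion molecule ICAM1 by 5.54 (SE 0.24, adjusted p = 1.72e-04) and TNFAIP3, the deubiquitinase A20, by 3.03 (SE 0.69, adjusted p = 0.0220). TNFAIP2 and ICAM1 passed the filter only through the 2 5637 sh-LNMAT1 libraries, so their calls were not independent of it. The size of their differences depends on the 0.5 added. TNF itself was at 0.287 and 0.185 FPKM in the same 5637 libraries. Of 8 genes of ligand processing kept, 3 were higher and 1 lower. TIMP3, an inhibitor of the protease that releases TNF, was 0.263 and 0.0947 FPKM in the UM-UC-3 hairpin libraries and 69.1 and 142 FPKM in those of 5637 (7.21, SE 0.38, adjusted p = 2.51e-04). TIMP3 too passed the filter only through these 5637 libraries, and its difference depends on the 0.5 added. The protease itself, ADAM17, was 30.5 and 28.7 FPKM against 14.8 and 14.3 FPKM (-1.0, SE 0.18, adjusted p = 0.0118). The proprotein convertase FURIN differed by 2.58 (SE 0.19, adjusted p = 5.35e-04) and RHBDF2, which brings ADAM17 to the cell surface, by 1.52 (SE 0.35, adjusted p = 0.0243).

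Of 15 p53 target genes, a list that holds TNFRSF10B and FAS, 4 were higher in 5637 and 4 lower. SESN2, a stress sensor, was 123 and 104 FPKM against 13.5 and 10.6 FPKM (-3.19, SE 0.22, adjusted p = 4.61e-04), and BBC3, the BH3-only protein PUMA, was 7.07 and 10.8 FPKM against 0.997 and 0.938 FPKM (-2.66, SE 0.26, adjusted p = 0.00150). PERP, a desmosomal protein, differed by 2.08 (SE 0.31, adjusted p = 0.00634). CDKN1A, the cell cycle inhibitor p21, differed by -0.37 (SE 0.34, adjusted p = 0.426) and MDM2 by -0.15 (SE 0.31, adjusted p = 0.720). In 5637 against the library labelled sh-NC, 3 of the 15 were higher (18.5% of all genes) and 5 lower (12.3%). In UM-UC-3 1 of 14, PERP, was higher with both hairpins (1.08% of all genes).

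Genes whose pattern over the 6 libraries was most like that of a member were taken by the largest departure on the log2 scale after each gene was centred on its own mean. For TNF these were CMPK2 (0.41), a mitochondrial nucleotide kinase, and ISG15 (0.56), an interferon-induced protein. ISG15 was 146, 40.6 and 249 FPKM for sh-NC, sh#1 and sh#2 of UM-UC-3 and between 19.5 and 23.2 FPKM in the 3 5637 libraries. For TNFRSF10A the nearest were FBXL4 (0.06) and PQLC2L (0.07), for TNFRSF10B PPP4R1L (0.17) and ZNF438 (0.18), and for TNFSF10 PHLDB2 and PSTPIP2 (0.12 each). For CD70 they were NAV3 (0.31) and RNF182 (0.34), for TNFSF9 GTF2IRD2B (0.17) and FOXC1 (0.18), and for TNFRSF12A CYCSP6 (0.20) and HOXC8 (0.23). TNFRSF1A was closest to WDR59 (0.09) and RNF8 (0.10), and FAS to CAPZA1 and PTOV1-AS2 (0.11 each). Over 6 libraries such a likeness is a description.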

How the data were processed

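RNA was extracted with TRIzol, and libraries were made with a stranded mRNA kit. Gene-level FPKM, deposited as a single table, are the authors' values, and the submitters' processing notes name HISAT2 and hg38. The counting program and annotation are not given in the sources used here, and they decide how reads of overlapping genes were divided. Of the 50869 rows, 1 had no values. Of 50868 identifiers, 50110 were found in GENCODE 29. Depth was recovered from single-exon genes, of which at least 99.95% gave whole fragments within 0.05, and exact intervals cover counting error only. Differences are of log2(FPKM + 0.5), for genes whose mean over the libraries compared reached 1 FPKM. With 1 library per group, each hairpin was compared with sh-NC without a test, at 2-fold. limma 3.58.1 (lmFit, eBayes with trend; R 4.3.3) with Benjamini-Hochberg adjustment over 12717 genes gave the pooled, interaction and between-line tests, in which the 2 hairpins of a line stand in for replicates. They were run on simulated data with independent noise of equal size in every library. That does not test the use of hairpins as stand-ins for replicates. Python 3.11.15, numpy 2.4.6, pandas 2.3.3 and scipy 1.17.1 were used.

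All 10 genes are named. From each list, up to 4 genes with the largest mean change or line difference were named. Others were chosen after their values were seen (CDKN1A, MDM2, CD3E, LYZ, PTPRC, TNFSF15, FASLG, CCL20, CXCL2). The difference of TNFRSF10D between the lines was given outside the rule for naming. Some results of the death receptor signaling list are not reported here. For each gene kept, the 2 most alike in pattern were named. Genes and lists were chosen with earlier results of these data known. The alternatives were other pseudocounts, filters, folds and scalings, single hairpins, and leaving out each library.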

Additional observations from a re-analysis of the deposited data

Results flagged for a closer look

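The knockdown difference was flagged for 3 of the 9 genes, 2 by the interaction test and TNFSF9 by opposite directions alone. The test called 18.8% of all genes, and TNFSF10 entered it only through the 2 5637 sh-LNMAT1 libraries. For TNFSF10 the difference in 5637 minus that in UM-UC-3 was 4.15 on the log2 scale (SE 0.39, limma adjusted p = 0.00377), or 6.40 with 0.1 and 3.22 with 1 added to the FPKM in place of 0.5, with both 5637 hairpin libraries above the library labelled 5637 sh-NC and UM-UC-3 under 0.1 FPKM throughout. For TNFRSF10A it was -2.11 (SE 0.31, adjusted p = 0.0121), with both 5637 hairpin libraries lower and both UM-UC-3 ones within 0.10 of their control. For TNFSF9 it was -1.34 (SE 0.70, adjusted p = 0.224), noted because both hairpins were above the control in UM-UC-3 and below it in 5637, and the test of the difference did not pass. Its ratio with sh-LNMAT1#2 in UM-UC-3 was 1.18 (0.825 to 1.69), an interval that includes no difference. All 3 values rest on the library labelled 5637 sh-NC, whose epithelial markers summed to 26.7 FPKM against 700 and 945 FPKM in the other 5637 libraries.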

How the results depend on the processing

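In UM-UC-3 the count of genes changed with both hairpins was 0 under other pseudocounts, filters and 75th-percentile scaling, and 1 at 1.5-fold (CD70). Taken singly, sh-LNMAT1#1 gave 3 of 8 (10.9% of all genes) and sh-LNMAT1#2 gave 2 of 8 (3.51%). In 5637 the count with both hairpins was 6 of 9 (30.7% of all genes), or 4 of the 5 genes kept with a filter of 5 FPKM. The shares of all genes at 1.5-fold and with that filter are not given here, so nothing is read from those counts. Leaving out libraries can leave a group with 1 library, so differences are given here in place of counts. As each library was left out, the pooled difference of CD70 ranged from -2.46 to -0.92 and that of TNFRSF10B from -1.58 to -0.25. As each hairpin library was left out, the interaction difference ranged from 3.96 to 4.33 for TNFSF10, from -2.13 to -2.09 for TNFRSF10A and from -0.73 to 2.23 for TNF. Between the lines TNF ranged from -2.80 to 0.15 and TNFRSF12A from -1.60 to -0.17. The interaction count was 4 with a pseudocount of 0.1 (18.5% of all genes). It was 1 with a filter of 5 FPKM (TNFRSF10A, 14.1% of all genes), which TNFSF10 did not pass. With the hairpin number as a replicate block the count between lines was 5 (40.3% of all genes), TNFRSF12A being added, and the number marks a shared construct only. With 75th-percentile scaling the library labelled 5637 sh-NC was nearer to UM-UC-3 for 7 genes in place of 5. The share of all genes under that scaling is not given here, so nothing particular to these genes is read from it. The causes of these changes were not tested. Of the fitted differences for single genes, 284 kept their side of the threshold, 16 gained and 3 lost it, and no call changed sign.

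Groups of 1 library leave the spread between cultures unmeasured. TNF in 5637 rests on 2 to 10 fragments, and TNFSF10 in the library labelled 5637 sh-NC is under the floor of 3.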
